A study of Rattus norvegicus with 15 samples.

Results

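Strongly lowered genes were followed in Rat1a, a rat fibroblast cell line, carrying stably introduced MYC. A gene belonged to the group when its mean in the empty vector line was at least 2 CPM (a gene's counts per 1000000 counts of its library) and its mean in every MYC line was at most 25% of that. Of 32545 gene identifiers in the tables, 11459 reached 2 CPM with the empty vector, and 70 of these (0.611%) met the rule in all 4 MYC lines. The members are numbered here from 1 to 70 by their level with the empty vector, member 1 being the most abundant.

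Messenger RNA was sequenced from 15 cultures of 5 stable lines, with 3 biological replicates per line. The control line (EV) held the vector without an insert, and the second line (WT) expressed unaltered mouse MYC. The other 3 lines, R149, R158 and R323, expressed mouse MYC with the lysine to arginine changes K149R, K158R and K323R. All were grown adherent in high-glucose DMEM with 10% FBS, and no further treatment is labelled. The cell type label reads normal primary fibroblasts, whereas Rat1a is known as an established line, and neither was checked against markers. There was 1 stable line per construct, and the labels do not say whether it was clonal, so effects of line and construct cannot be told apart. The p-values measure only the spread between these cultures, and in bulk RNA fewer expressing cells and less RNA per cell cannot be told apart.

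The transcription factor MYC binds DNA as a dimer with MAX and raises genes of growth and metabolism. It also lowers genes, among other ways by acting on the activator MIZ1 at their promoters, and in fibroblasts the lowered genes are known to include matrix, adhesion, cytoskeletal and growth arrest genes. Arginine keeps the positive charge of lysine but cannot be acetylated, and the study asked what the acetylated lysines contribute to gene-selective regulation. The tables give rat Ensembl identifiers without gene names, and 0 of 32545 could be paired with a symbol here. The roles of the 70 members, their promoters, the fibroblast markers of the cells and the level of Myc were therefore not examined, and members are described by their levels alone.

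Libraries held from 13.3 to 109 Mcounts (1 Mcount is 1000000 counts). The library R149 replicate 1 stood apart. After every library was thinned to the smallest total, it had 13693 genes detected, against 14866 to 15667 in the other 14. Replicate 1 was also the lowest of its line for many of the 11459 genes, 47.9% in WT, 50.6% in R149 and 53.2% in R323. The number of members and the calls between MYC lines are also given without these libraries. Counts of the lowest and highest line, of depth, of the order of line means and of separated libraries include all libraries only.

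Most members were modestly expressed with the empty vector. Their median EV level was 5.30 CPM, with an interquartile range of 4.01 to 13.1 CPM, where all 11459 genes had a median of 33.9 CPM. Only 7 members lay above that median, and 31 (44.3%) were below 5 CPM, against 9.70% of all genes. The exception was member 1, at 8808 CPM, which made up 91.3% of the members' summed EV level. Member 2, the next, stood at 87.6 CPM. The 70 members together took 0.806%, 0.958% and 1.13% of the counts of EV replicates 1, 2 and 3. In the 12 MYC libraries they took 0.0562% to 0.177%. Without member 1 the shares were 0.0671% to 0.0955% in EV and 0.0067% to 0.0142% in the MYC libraries.

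All 4 lines held the members at a small share of their EV level, R149 and R323 lowest and R158 highest. The SD of the 3 library medians was 4.05 percentage points in WT, 2.21 in R149, 3.86 in R158 and 2.49 in R323, and the line medians are to be read beside that spread. In WT the median member stood at 13.7% of its EV mean, in R149 at 10.8%, in R158 at 17.3% and in R323 at 10.3%. The median fold below EV was 7.30, 9.28, 5.78 and 9.69. Genes as a whole (11459) had medians of 99%, 96.8%, 96.6% and 99.4%. These values chose the members, so they describe the group and carry no test, and the 4 comparisons share the same 3 EV libraries. The interquartile range lay between 8.52% and 19.7% in WT, between 6.76% and 14.3% in R149, between 9.49% and 21.7% in R158, and between 6.05% and 14.7% in R323. In the fit over all genes, edgeR called 70 of 70 members lower than EV in each line. Of all 13676 genes tested, 14.1% were called lower in WT, 20.2% in R149, 14.1% in R158 and 15.7% in R323. Because the rule used these contrasts, nothing is read from the calls. All 70 members passed the filter on low counts. The EV group, where they are high, was enough for that, although the most abundant members also had the counts for it in the MYC lines.

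R158 was most often the shallowest line. It held the highest of the 4 line means for 35 members, WT for 21, and R149 and R323 for 7 each. R149 was lowest for 32 members, R323 for 21, WT for 12 and R158 for 5. For many of its 32 members R149 was lowest only through its replicate 1, where 19 members were at 0 counts. These counts were not repeated without that library. The larger count for R149 than for R323 rests on it and is not to be read as a ranking. In R158, 27 members lay between 20% and 25% of EV, against 15 in WT, 6 in R149 and 7 in R323. At the deep end, 16 members were at or below 5% of EV in R323, 10 in R149, 9 in WT and 7 in R158. Only 11 members were at or below 12.5% of EV in all 4 lines.

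The threshold fell within a continuous range. The 4 members just inside had their highest line at 24.7%, 24.8%, 24.9% and 24.99% of EV, and the 4 genes just outside at 25.2%, 25.7%, 25.999% and 26.2%. In 6 of these 8 genes the highest line was R158, and in the other 2 it was WT. The lines also differed in how many genes reached 25% of EV at all. There were 125 in WT (1.09% of the 11459), 282 in R149 (2.46%), 112 in R158 (0.977%) and 167 in R323 (1.46%). Members were 56% of the WT genes, 24.8% of the R149 genes, 62.5% of the R158 genes and 41.9% of the R323 genes. A further 49 genes met the rule in exactly 3 lines. Of these 26 missed it in R158, with a median of 30.5% of EV there and a highest value of 54.3%. In WT 22 missed it, with a median of 37.9% and a highest value of 831%, so not all were near the threshold. In R323 1 missed it, at 27.7%. R149 was the limiting line for none of the 49.

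**Figure D1:**
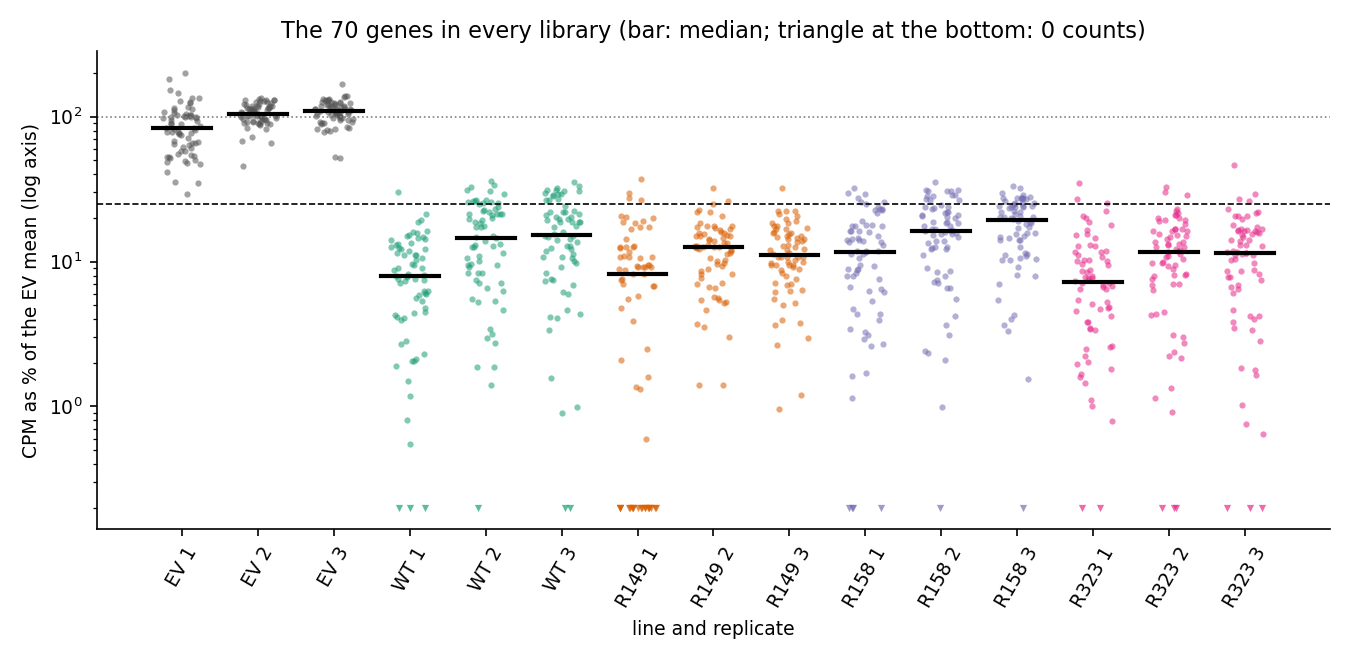
Level of the 70 members in each of the 15 libraries as a percentage of the gene's EV mean (log axis), with the median as a bar, 0 counts as triangles at the bottom, and a dashed line at 25%. The medians of the MYC libraries lie between 7.26% and 19.4%, and replicate 1 has the lowest median in each MYC line.

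By replicate, the group was lowest in replicate 1 of every MYC line. Library medians were 7.96%, 14.6% and 15.3% of the EV mean in WT replicates 1, 2 and 3, and 8.20%, 12.6% and 11% in R149. They were 11.7%, 16.3% and 19.4% in R158, and 7.26%, 11.7% and 11.46% in R323. The WT, R149 and R323 medians overlapped, and every R158 median exceeded that of the same-numbered library of the other lines. EV replicate 1 was itself low, with a median of 83.2% of the EV mean, against 105% and 110% in EV replicates 2 and 3. Set against the EV library of the same number, the medians were 9.50%, 15.2% and 13.8% in WT, 7.47%, 11.8% and 10.6% in R149, 14.3%, 17.2% and 17.4% in R158, and 8.06%, 11.6% and 10.3% in R323. Replicate 1 remained the lowest of each line on this scale.

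The low position of replicate 1 was not the same in every line when read against all genes. In WT, replicate 1 was the lowest library for 54 members (77.1%), in R149 for 48 (68.6%), in R158 for 45 (64.3%) and in R323 for 37 (52.9%). The shares over all 11459 genes were 47.9%, 50.6%, 39.0% and 53.2%. EV replicate 1 was lowest for 43 members (61.4%), against 39.0% of all genes. Members with all 4 MYC replicate 1 libraries below the other 8 numbered 3 (4.29%), against 10.4% of all genes. These were members 2, 5 and 45. For member 5, replicate 1 stood at 0.918 CPM in WT, 1 in R149, 1.503 in R158 and 0.766 in R323, and the other 8 MYC libraries at 2.66 to 6.01 CPM. Its EV libraries stood at 37.8, 51.6 and 54.5 CPM.

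Values of 0 counts were most frequent in R149 replicate 1. Of the 840 member values in MYC libraries 39 were 0 counts, and 19 of them came from that library, although its 37.0 Mcounts exceeded the totals of 8 of the other 11 MYC libraries. R149 replicates 2 and 3 had 0 members at 0 counts, and no other library had more than 4. After thinning to 13.3 Mcounts, R149 replicate 1 had 20 members at 0 and the other MYC libraries 0 to 6. The part of this library's low detection in the depth of R149 was not tested. Without it the R149 median was 12.1% and the members numbered 69.

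The ceiling of 25% on each line mean also limits how high a single library can lie. A return of a member to its EV mean in 1 library was therefore barred by the rule, and the values below are description only. Of the 840 values 85 were above 25% of the EV mean and 0 were above 50%. They were most frequent in R158 replicate 3 (17 members), WT replicates 2 and 3 (15 each) and R158 replicate 2 (13), and rarest in WT replicate 1 and R149 replicate 3 (1 each). The highest was 46.3% of EV, in R323 replicate 3. Altogether 28 members were at or below 25% in all 12 MYC libraries. For 70 of 70 members every MYC library lay below every EV library, as for 16.9% of all 11459 genes. The rule favours this, and nothing is read from it. The gap varied: the lowest EV library exceeded the highest MYC library by a median ratio of 2.90, and by only 1.06 at the least.

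**Figure D2:**
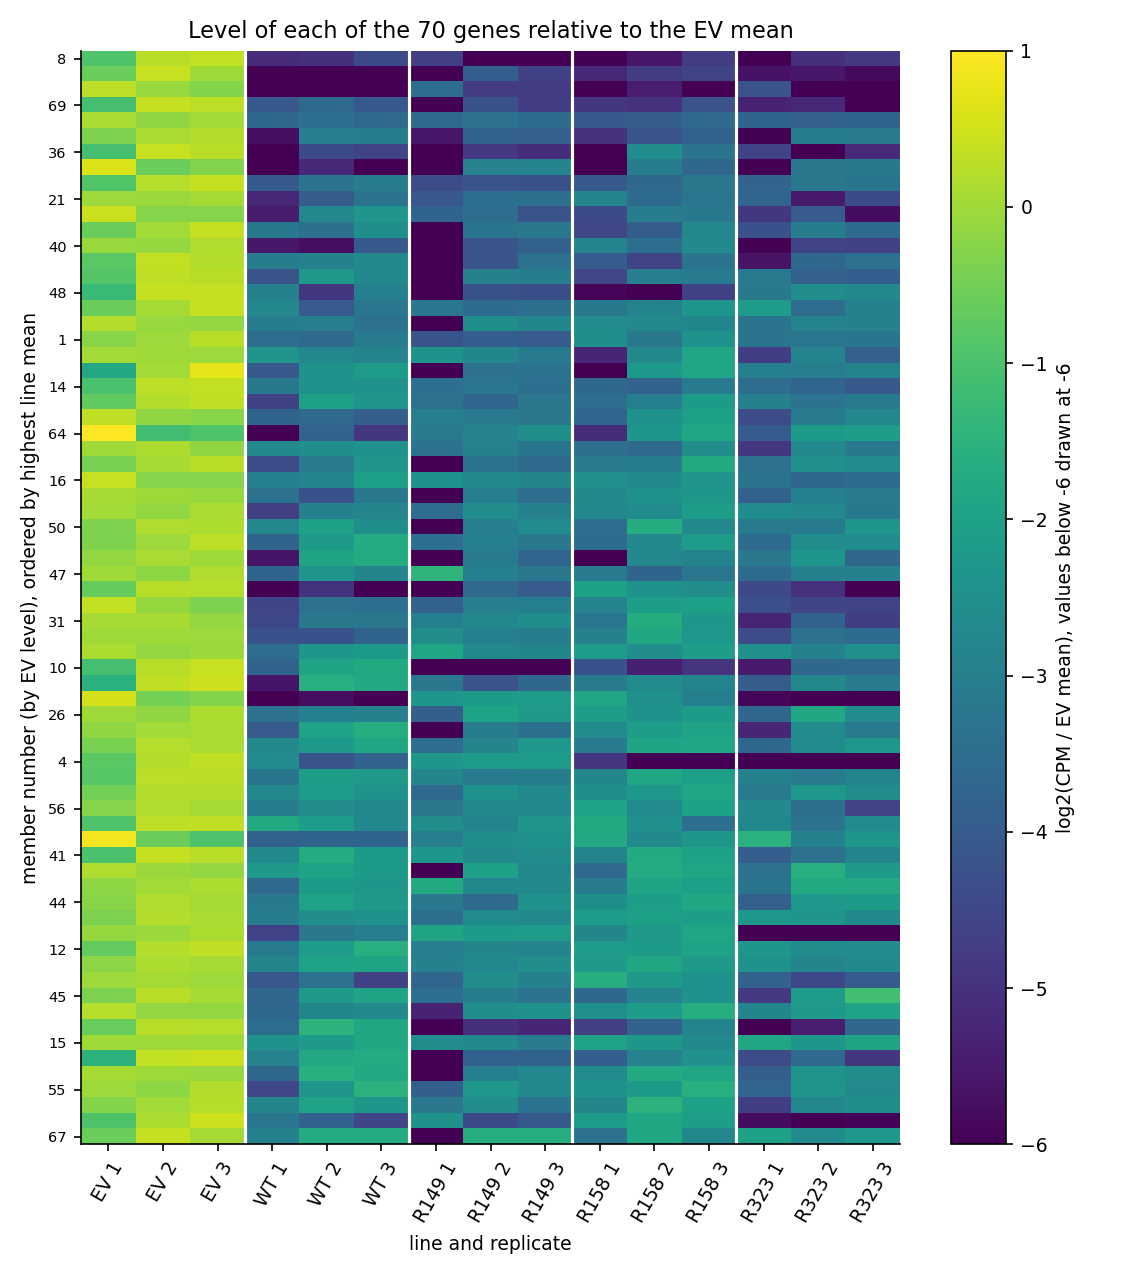
Each row is 1 of the 70 members, ordered from deepest (top) to shallowest by the highest of its 4 line means, and each column 1 library. Colour gives log2 of CPM over the EV mean, with values below the end of the scale drawn at its end. The 3 EV columns are the lightest, the R149 replicate 1 column has the most dark cells, with 19 members at 0 counts, and dark blocks of 3 libraries mark members that fell much further in some lines than in others.

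Members chosen on some libraries were mostly low in libraries that took no part in the choice. The rule was applied to 2 replicate numbers at a time and the genes then read in the third, against the EV library of that number. With replicate 1 held out, 65 genes were chosen, of which 53 were at or below 25% of EV in WT, 52 in R149, 43 in R158 and 51 in R323. With replicate 2 held out, the counts were 57, 59, 50 and 59 of 66, and with replicate 3 held out 54, 60, 47 and 58 of 67. Over all 12 readings this was 81.2% ± 4.37 (SD over the 3 held-out replicates). The 3 choices share libraries, and within each all 4 lines are read against the same EV library, so this SD is not an independent spread. The held-out libraries are cultures of the same stable lines, so low levels in them say nothing about other lines. The same readings over all genes of at least 2 CPM ranged from 0.958% to 4.36%. All 4 lines were at or below 25% together for 35 of 65, 44 of 66 and 37 of 67 genes, against 0.796%, 0.567% and 0.444% of all genes. R158 had the lowest share each time. The choice still included 52, 61 and 58 of the 70 members.

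**Figure D3:**
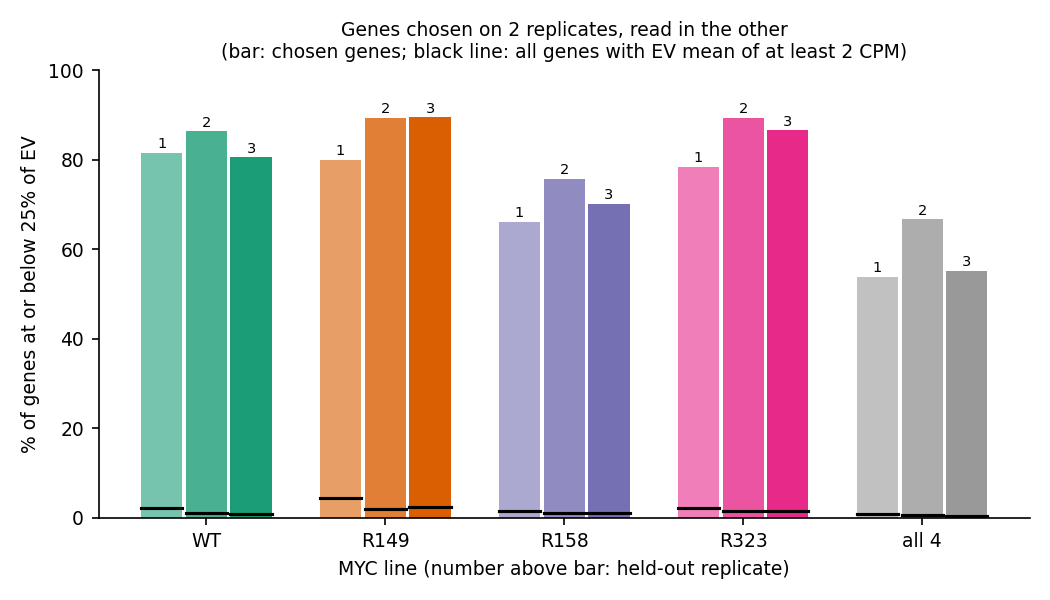
Share of genes at or below 25% of EV in a held-out replicate (vertical axis, percent), for genes chosen on the other 2 replicates (bars, labelled with the held-out replicate) and for all genes of at least 2 CPM in EV (black lines). The bars lie between 66.2% and 89.6% for single lines and between 53.8% and 66.7% for all 4 lines together, and the black lines are at most 4.36%.

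Member 1, ENSRNOG00000003897, fell from the highest level of the group. It stood at 7385, 8678 and 10363 CPM in EV replicates 1, 2 and 3. In WT the level was 774, 731 and 991 CPM, R149 held 488, 587 and 553, R158 held 1540, 983 and 1630, and R323 held 885, 918 and 907. Means ± SD (n = 3) were 8808 ± 1493 in EV, 832 ± 139 in WT, 543 ± 50.2 in R149, 1384 ± 351 in R158 and 903 ± 17.0 in R323. R149 and R158 did not overlap, and R323 had the least spread. Every library held at least 16162 counts of this gene.

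Member 8, ENSRNOG00000033570, was the deepest by its highest line among members of at least 5 CPM. It stood at 17.2, 39.1 and 41.7 CPM in EV, and EV replicate 1 was thus well below the others. In WT it was at 0.918, 0.976 and 1.52 CPM, in R149 at 1.27, 0.461 and 0.312, in R158 at 0.526, 0.682 and 1.19, and in R323 at 0.328, 0.986 and 1.14. The line means were 3.48% of EV in WT, 2.09% in R149, 2.44% in R158 and 2.501% in R323. All 4 MYC lines overlapped, and edgeR called none of the 6 differences between MYC lines for it, with adjusted p of at least 0.619.

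The members differed widely in how alike the 4 lines were. In 30 members the highest MYC line was less than 2 times the lowest, and in 24 it was 2 to 4 times. In 9 it was 4 to 10 times and in 7 at least 10 times. Here a line mean below its floor of 3 counts was set to that floor. The median was 2.26 times, against 1.21 over all 11459 genes, for which no floor was set. Members were lower than most genes, so counting error weighs more on them, and its part in this difference was not tested. Member 29 was the most even, with a ratio of 1.28. It stood at 7.87, 6.54 and 7.46 CPM in EV, and its 12 MYC libraries held between 0.451 and 0.714 CPM.

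Differences between MYC lines were not used by the rule, apart from the ceiling of 25% that it sets on each. In the fit over all 13676 genes edgeR called 11 of the 70 members (15.7%) different between MYC lines in at least 1 of the 6 contrasts, with 22 called differences in all. Of all genes tested 3.40% were called in at least 1. Without R323 replicate 2 or 3 the members numbered 7 each, where 2.14% and 2.12% of all genes were called. With the replicate number as a block they numbered 18, against 8.75% of all genes. Without the replicate 1 libraries of all lines they numbered 44, against 20.6%.

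By contrast, 4 members differed between R149 and WT (2 higher and 2 lower in R149), 5 between R158 and WT (4 higher, 1 lower), and 2 between R323 and WT (both lower). Between mutants, 2 differed for R149 against R158 (1 higher, 1 lower), 3 for R149 against R323 (all higher in R149) and 6 for R158 against R323 (all higher in R158). In the same order, 1.18%, 0.6%, 0.892%, 1.27%, 1.07% and 0.936% of all genes were called. By direction, 0.19% of all genes were higher and 0.994% lower in R149 than WT, 0.285% higher and 0.314% lower in R158 than WT, and 0.329% higher and 0.563% lower in R323 than WT. For R149 against R158 the shares were 0.271% higher and 1% lower, for R149 against R323 0.183% and 0.892%, and for R158 against R323 0.578% and 0.358%. With both directions counted, the members' share was above the share of all genes in each contrast, but rested on only 2 to 6 members. Whether these shares differ was not tested. By direction it was not always above. The members called were 0 for higher in R323 than WT (0.329% of all genes). They were also 0 for lower in R149 than R323 (0.892%) and for lower in R158 than R323 (0.358%). DESeq2 called 6, 9, 4, 3, 7 and 10 members, against 2.7%, 1.44%, 1.73%, 2.14%, 1.79% and 3.24% of all genes. With the replicate block the members numbered 7, 8, 5, 4, 8 and 9, against 3.73%, 1.78%, 2.36%, 2.79%, 2.21% and 3.44% of all genes. Without the replicate 1 libraries they numbered 25, 19, 15, 16, 12 and 20, against 9.59%, 7.22%, 6.7%, 4.54%, 3.96% and 9.23%.

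Single libraries moved these counts, and the share of all genes called moved with most of them. For R149 against WT, 2 members were called when WT replicate 2 or 3 or R149 replicate 2 or 3 was left out, against 0.554%, 0.567%, 0.604% and 0.553% of all genes. For R158 against WT, leaving out WT replicate 2 gave 2 members (0.241% of all genes) and leaving out WT replicate 3 gave 0 (0.136%). That 0 is from edgeR, where 19 members had an unadjusted p under 0.05, and DESeq2 was run on all libraries only. Leaving out R158 replicate 2 or 3 gave 1 member each in that contrast (0.166% and 0.229%). R323 against WT called 5 members without WT replicate 1 (1.76%). For R158 against R323, 2 members were called without R323 replicate 2 (0.226%) or 3 (0.272%).

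Libraries outside a contrast share in its estimate of spread. R158 against WT called 3 members when EV replicate 2 (0.474% of all genes), EV replicate 3 (0.445%), R149 replicate 3 (0.502%) or R323 replicate 3 (0.473%) was left out. It called 2 without R323 replicate 2 (0.444%), and 2 with only the 12 MYC libraries (0.444%). R149 against R323 called 5 members without R158 replicate 2 (1.3%) and 6 without WT replicate 1 (1.34%). With no filter on low counts it called 6, against 0.849% of all genes.

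The direction of the line means can be read for all 70 members, here with all libraries included. R149 had the lower mean than R158 in 59 of 70 members, against 51.3% of all 11459 genes, and R158 the lower mean than R323 in only 17, against 57.0%. R323 was below WT in 48 and R149 below WT in 46, where the shares over all genes were 47.4% and 56.3%. R158 was below WT in 28 members and R149 below R323 in 39, against 54.8% and 59.4%. Complete separation of the 3 libraries of each line was counted in both directions. R158 lay wholly above R323 in 21 members (9.25% of all genes) and wholly below in 1 (11.3%). It lay wholly above R149 in 20 (7.93%) and below in 3 (4.96%), and wholly above WT in 16 (5.98%) and below in 4 (6.43%). R323 lay wholly below WT in 13 members (5.65%) and above in 2 (7.75%). R149 lay wholly below WT in 10 (9.08%) and above in 9 (6.67%), and wholly below R323 in 7 (13.5%) and above in 12 (8.89%). The 59 members with no call between MYC lines are not shown to be alike in them.

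**Figure D4:**
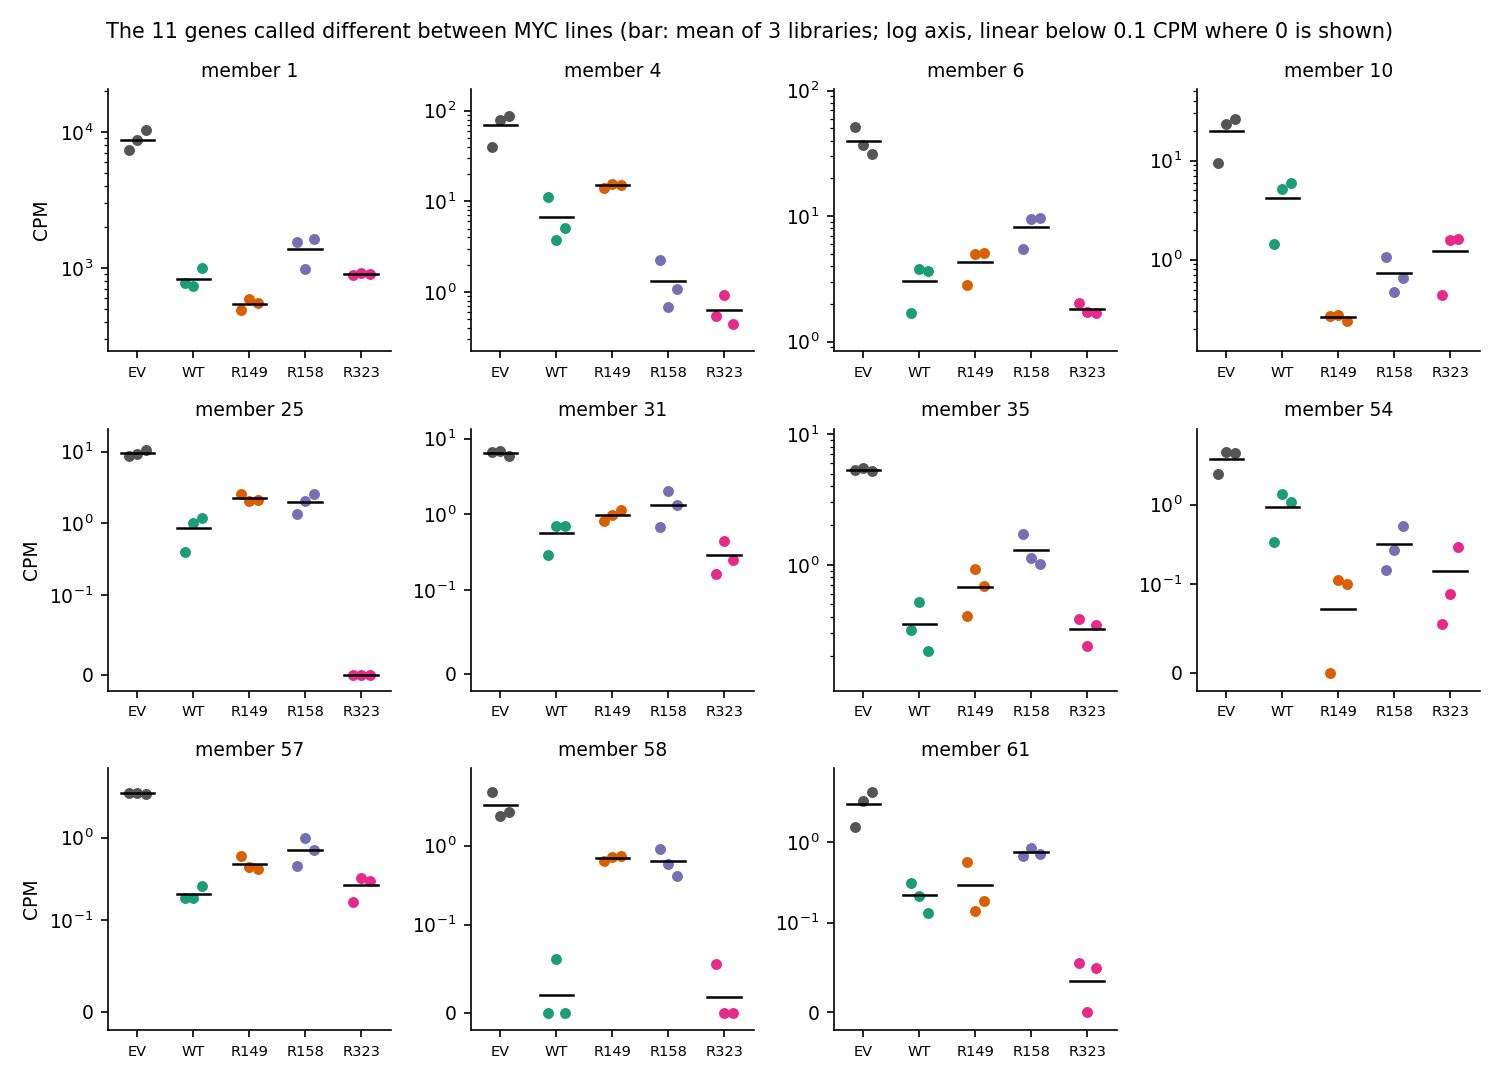
Levels in CPM (log axis, linear below 0.1 CPM where 0 is shown) of the 11 members called different between MYC lines, with 3 libraries per line as points and the mean as a bar. Every EV point lies above every MYC point in each panel, member 25 is at 0 in all 3 R323 libraries, and R158 is the highest MYC line in 6 of the 11 panels.

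Member 4 had a different order of lines from the group. It stood at 40.1, 79.4 and 86.9 CPM in EV and at 14.1, 15.6 and 15.3 CPM in R149, its shallowest line. In WT it was at 11.1, 3.78 and 5.08 CPM, in R158 at 2.26, 0.682 and 1.07, and in R323 at 0.547, 0.926 and 0.444. No R149 library overlapped with another MYC line, and no WT library overlapped with R158 or R323. R149 against WT was nevertheless not called (log2 difference 1.18 ± 0.38, edgeR adjusted p 0.189). The log2 difference of R149 was 3.63 ± 0.48 (SE) from R158 and 4.51 ± 0.50 from R323, with edgeR adjusted p of 0.00132 and 2.2e-04. R323 was below WT by a log2 difference of -3.34 ± 0.51 (edgeR adjusted p 0.00313) and R158 by -2.45 ± 0.49 (0.0312). The last call was lost when WT replicate 3, R158 replicate 2 or R158 replicate 3 was left out (edgeR adjusted p 0.0636, 0.262 and 0.137, in a range of 0.00101 to 0.262 over 12 alternatives). Among single libraries, the 12 alternatives of a call leave out only those of the lines compared.

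Member 10 was the reverse case, with WT as its shallowest line. It stood at 9.54, 23.4 and 26.4 CPM in EV and at 1.44, 5.22 and 5.90 CPM in WT. In R149 it was at 0.27, 0.276 and 0.239 CPM, in R158 at 1.05, 0.477 and 0.652, and in R323 at 0.438, 1.58 and 1.63. The R149 libraries were all below those of every other line, but edgeR did not call R149 different from R158 (adjusted p 0.558) or R323 (0.132). R149 differed from WT by a log2 difference of -3.93 ± 0.56 (edgeR adjusted p 0.00201), which its 12 alternatives all called. Member 54 had the same order of WT and R149, at 0.341, 1.37 and 1.08 CPM in WT and 0, 0.115 and 0.101 in R149, with EV at 2.45, 4.52 and 4.43. Its log2 difference of -3.41 ± 0.66 had an edgeR adjusted p of 0.0169. That call was lost when WT replicate 2 or 3 or R149 replicate 2 or 3 was left out (0.0563 to 0.109), in a range of 3.12e-05 to 0.109 over 12 alternatives.

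Member 25 was not detected in R323. It stood at 8.81, 9.18 and 10.5 CPM in EV, and at 0 counts in all 3 R323 libraries, which held 18.3, 33.5 and 20.3 Mcounts. The floor of 3 counts over the line is 0.0417 CPM, so R323 was at least 228-fold lower than EV, for counting error only. In the other lines the gene was low but present, at 0.393, 1.01 and 1.17 CPM in WT, 2.54, 2.07 and 2.11 in R149, and 1.35, 2.04 and 2.55 in R158. Against the same floor, R323 was at least 53.8-fold lower than R149, at least 47.6-fold lower than R158 and at least 20.6-fold lower than WT. The edgeR adjusted p for these 3 differences was 4.7e-05, 1.5e-04 and 8.1e-04. R149 was above WT by 1.47 ± 0.32 on the log2 scale (edgeR adjusted p 0.0455). Leaving out any 1 of the 6 libraries of WT and R149 ended that call (0.0565 to 0.123), as did the fit of the 12 MYC libraries alone (0.142), in a range of 0.000826 to 0.142 over 12 alternatives.

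Member 58 split the lines into 2 levels. Its EV libraries stood at 4.80, 2.37 and 2.65 CPM. R149 was at 0.649, 0.714 and 0.734 CPM and R158 at 0.902, 0.579 and 0.415, while WT held 2 counts and R323 1 count over 3 libraries each. The ratio of pooled levels was 33.5 for R149 over WT (95% exact counting interval 9.09 to 279) and 28.4 for R158 over WT (7.31 to 244). Over R323 the ratios were 51.3 (9.06 to 2042) and 43.5 (7.33 to 1767). The edgeR adjusted p was 0.00286 and 0.0114 against WT and 0.0057 and 0.0114 against R323, for R149 and R158. R149 against R323 was lost without R323 replicate 2 (0.0547, in a range from 0.000988 over the alternatives). R158 against R323 was lost without R323 replicate 2 or 3 (0.0998 and 0.0795, from 0.00219). R158 against WT was lost without WT replicate 3 or R158 replicate 2 (0.0673 and 0.0553, from 0.00236).

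The remaining differences all involved R158. For member 1, R149 stood at a log2 difference of -1.35 ± 0.17 from R158 (edgeR adjusted p 0.00123), which its 12 alternatives all called. Member 6 stood at 51.6, 36.8 and 31.4 CPM in EV, at 5.49, 9.51 and 9.66 in R158 and at 2.03, 1.73 and 1.68 in R323. The log2 difference between R158 and R323 was 2.24 ± 0.32 (edgeR adjusted p 0.0025). WT, at 1.71, 3.78 and 3.64 CPM, was below R158 as well, by 1.51 ± 0.30 (adjusted p 0.0284). This second call was lost when WT replicate 2 or 3 or R158 replicate 2 or 3 was left out (edgeR adjusted p 0.0704 to 0.159) or only the 12 MYC libraries were fitted (0.0671), and its range over 12 alternatives was 0.000143 to 0.159.

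Members 31, 35, 57 and 61 were likewise higher in R158. Member 31 stood at 6.62, 6.79 and 5.84 CPM in EV, 0.677, 2.01 and 1.30 in R158 and 0.164, 0.448 and 0.247 in R323 (log2 difference 2.22 ± 0.44, edgeR adjusted p 0.0249). Member 35, at 5.32, 5.53 and 5.24 CPM in EV, was at 1.73, 1.12 and 1.01 in R158. It was at 0.315, 0.519 and 0.217 in WT and 0.383, 0.239 and 0.346 in R323, with log2 differences of R158 of 1.86 ± 0.38 and 2.06 ± 0.40 (edgeR adjusted p 0.035 and 0.0231). Its EV and R158 values did not overlap with each other or with WT and R323. Member 57, at 3.49, 3.47 and 3.40 CPM in EV, was at 0.451, 0.988 and 0.711 in R158 and 0.184, 0.183 and 0.260 in WT (log2 difference 1.88 ± 0.39, edgeR adjusted p 0.037). Member 61, at 1.56, 3.27 and 4.16 CPM in EV, was at 0.677, 0.852 and 0.711 in R158, and R323 held 2 counts. The ratio of pooled levels was 27.8 (95% exact counting interval 7.28 to 237), with an edgeR adjusted p of 0.0211.

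Each of these calls was lost when some single libraries were left out, and all but that of member 61 also when only the 12 MYC libraries were fitted. That fit gave adjusted p of 0.0763 for member 31, 0.0837 and 0.126 for member 35 against R323 and WT, and 0.126 for member 57. Member 57 was lost with no filter on low counts as well (0.0563). Member 31 was lost when R158 replicate 2 or any R323 library was left out, with edgeR adjusted p of 0.000511 to 0.205 over the 12 alternatives. For member 35 the call against R323 was lost when R158 replicate 1 or 2 or R323 replicate 2 or 3 was left out (range 0.000893 to 0.181). Its call against WT was lost when any of the 6 libraries of WT and R158 was left out (0.00213 to 0.218). Member 57 was lost when any WT library or R158 replicate 2 or 3 was left out (0.00705 to 0.292). Member 61 was lost when R158 replicate 2 or R323 replicate 2 or 3 was left out (0.00296 to 0.157). All p here are edgeR or, within the ranges, DESeq2 adjusted p.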

How the data were processed

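The deposited values were raw counts per rat Ensembl gene, 1 table per library, as the whole numbers of differing totals show. TopHat2 2.1.0 and the build Rnor_6.0 are listed, per the submitters' processing notes. The libraries were stranded, but which tool, strand setting and annotation produced the counts is not stated here, so overlapping genes and near-identical copies are uncertain. CPM is count per column total, without added standard, so levels are relative to each library's other RNA. Members were found on CPM. Counts were tested with edgeR 4.0.16 (R 4.3.3), using filterByExpr with a minimum count of 10, TMM scaling, a quasi-likelihood fit of 15 libraries with line as the only term, and Benjamini-Hochberg adjustment over 13676 genes at 0.05. The SE of a log2 difference was derived from its F statistic. DESeq2 1.42.0 was an alternative. The fit was tested on simulated data. Replicates differed beyond counting noise (chi-square per degree of freedom 4.24 to 81.8), so each counted once.

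Members and lists were chosen with earlier results of these data known. The rule for named genes gave, lacking symbols, at most 2 identifiers that fell: the most abundant member and the one lowest in its highest line at 5 CPM or more. Others are described by number, chosen for a call between MYC lines or, for members 2, 5, 29 and 45, after their values were seen. The 18 gene lists and 6 marker lists prepared could not be matched and were not used. The replicate numbers come from the labels. Deviations of same-numbered libraries from their line means correlated over 0.1 in every pair of MYC lines, from 0.127 to 0.540. The counts of calls in those contrasts are therefore given with the block too. The adjusted p of single members, called or not, are from the fit without it, except where alternatives are named. Intervals and floors cover counting error only.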

Additional observations from a re-analysis of the deposited data

Results flagged for a closer look

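Each difference below is a member whose change against EV was not the same in a pair of MYC lines, by the edgeR contrast between those lines, with log2 differences of the first line from the second. In R149 against WT, members 10 and 54 stood at -3.93 and -3.41, and members 25 and 58 at 1.47 and 4.85. In R158 against WT, member 4 stood at -2.45, and members 6, 35, 57 and 58 at 1.51, 1.86, 1.88 and 4.67. In R323 against WT, member 4 stood at -3.34 and member 25 was at least 20.6-fold lower. In R149 against R158, member 1 stood at -1.35 and member 4 at 3.63. In R149 against R323, members 4 and 58 stood at 4.51 and 5.35, and member 25 was at least 53.8-fold higher. In R158 against R323, members 6, 31, 35, 58 and 61 stood at 2.24, 2.22, 2.06, 5.17 and 4.61, and member 25 was at least 47.6-fold higher. The values of member 58, and of member 61 against R323, rest on 1 or 2 counts in the lower line, and the fitted size depends on the prior count.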

How the results depend on the processing

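The 70 members became 63 with TMM scaling and 66 with DESeq2 size factors, all among the 70. They became 39 with an EV mean of at least 5 CPM, 96 with at least 1 CPM, 397 at 50% of EV and 11 at 12.5%. Leaving out each library gave 56 to 74, and leaving out the replicate 1 libraries gave 65, of which 52 were among the 70. The line medians moved by less than their spread over libraries under TMM scaling, medians for means and each library left out, ranging from 12.4% to 15.8% in WT, 9.92% to 12.1% in R149, 15% to 18% in R158 and 9.60% to 11.96% in R323. The held-out share was 80.9% with TMM scaling.

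Members called are given in the order R149, R158 and R323 against WT, then R149 against R158, R149 against R323 and R158 against R323. With the replicate block they numbered 7, 8, 5, 4, 8 and 9, against 3.73%, 1.78%, 2.36%, 2.79%, 2.21% and 3.44% of all genes. Without the replicate 1 libraries they numbered 25, 19, 15, 16, 12 and 20, against 9.59%, 7.22%, 6.7%, 4.54%, 3.96% and 9.23%. DESeq2 called 9 for R158 against WT (1.44% of all genes) and 4 for R323 against WT (1.73%). It called 7 for R149 against R323 (1.79%) and 10 for R158 against R323 (3.24%). Without the count filter R149 against R323 gave 6 (0.849% of all genes), and with only the 12 MYC libraries R158 against WT gave 2 (0.444%). Leaving out each library of the lines compared gave 2 to 4, 0 to 4, 2 to 5, 2, 2 to 4 and 2 to 6. The shares of all genes for the counts that moved most are given in Results. Members called in any contrast, an alternative set added after seeing the data, numbered 18 with the block (8.75% of all genes). They numbered 44 without the replicate 1 libraries (20.6%) and 7 to 12 with a library left out, the 7 beside 2.14% and 2.12%. The cause of these changes was not tested, and leaving libraries out also reduces the samples. Of the 22 called differences 10 were called under all 12 alternatives, 0 reversed, and the block lost 0. Among single libraries, these 12 leave out only those of the lines compared. Libraries of other lines also moved the counts of calls, as given in Results, and are not part of the 12. The 12 MYC libraries alone lost 6 (R158 against WT in members 6, 35 and 57, R158 against R323 in members 31 and 35, and R149 against WT in member 25), and no count filter lost 1 (member 57). Low counts limited 6 members in R323, 5 in WT and 3 in R158, which held fewer than 10 counts over their 3 libraries.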
